A study of Homo sapiens with 21 samples.

Results

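The 3 libraries labelled MYC-OE were compared directly with the 3 libraries labelled 3xSR, over every gene of the count table that holds them. Both groups came from HCC1806, an established human breast cancer line with squamous features, grown as adherent cells in flat (2D) culture and profiled by stranded, polyA-selected, paired-end RNA sequencing. By their labels, MYC-OE cells were made to overexpress the transcription factor MYC, and 3xSR cells 3 splicing factors together, SRSF2, SRSF3 and SRSF7; the measured levels of these genes are given below, and SRSF2 was not higher in 3xSR than in its control. Another group of 3 libraries, labelled 3xCTL and given the genotype control, was sequenced in the same table and shares in the fit. The comparison used 6 of the 21 samples of the series, and 23160 of the 60668 genes in the table passed the filter on low counts. The labels do not give the vector or promoter of the overexpression, whether a line was 1 clone, or whether the replicates were separate cultures, so p-values measure the spread between these samples, which may be technical.

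MYC is a helix-loop-helix leucine zipper protein that pairs with MAX, binds E-box sequences and raises transcription of genes for ribosomes, nucleotides and metabolism. SR proteins carry an RNA-binding domain and an arginine- and serine-rich tail, bind exonic enhancers and recruit the spliceosome. They also act in export and translation of messenger RNA, and the genes for many of them are controlled by poison exons. MYC is known to raise the expression of several splicing factors, which is the link between the 2 kinds of overexpression placed side by side here.

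Library totals ran from 143269192 counts (3xSR replicate 3) to 248367765 counts (MYC-OE replicate 1), so 3 counts, the limit that a count of 0 allows, corresponded to 0.0122 to 0.021 CPM (library-size-scaled counts, as edgeR defines them). CPM values below were scaled by the trimmed mean of M-values (TMM). On the first axis of a multidimensional scaling of the 9 libraries, 3xCTL lay between -1.76 and -1.58, 3xSR between 0.168 and 0.338, and MYC-OE between 1.3 and 1.47. The 10 basal breast epithelium markers examined were all at or above 1 CPM in all 9 libraries and summed to 6260 to 6520 CPM in 3xSR and 7060 to 7070 CPM in MYC-OE. Taken singly, 2 of the 10 were called higher in MYC-OE than in 3xSR and 2 lower. With the GC trend of each library removed, as described further on, 2 were higher and 4 lower. Of 14 tested markers of immune, endothelial and fibroblast cells, 3 reached 1 CPM in each of the 6 libraries: COL1A1, LUM and CD68. Their summed level was 41.7 to 45.3 CPM in 3xSR and 52.3 to 56.4 CPM in MYC-OE, and the defining markers PTPRC, PECAM1 and CDH5 averaged under 1 CPM in both groups.

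The targeted genes were examined first. MYC stood at 156, 156 and 159 CPM in 3xSR and at 171, 170.0 and 181 CPM in MYC-OE, with a mean of 93.4 CPM in 3xCTL (SD 2.87, n = 3). The groups did not overlap, but MYC was only 1.11-fold higher in MYC-OE than in 3xSR (log2 difference 0.15, SE 0.05, adjusted p = 0.029, edgeR quasi-likelihood test). Against 3xCTL, MYC was higher by log2 0.90 in MYC-OE and by log2 0.75 in 3xSR. The call between the 2 groups was lost when the GC trend of each library was removed (0.059, adjusted p = 0.232) and when any single replicate of either group was left out.

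SRSF2 stood at 373, 397 and 387 CPM in 3xSR and at 295, 297 and 278 CPM in MYC-OE, a fall of 1.33-fold (log2 difference -0.41, SE 0.05, adjusted p = 0.000111). Its mean in 3xCTL was 403 CPM (SD 18.3, n = 3), so the libraries labelled 3xSR did not carry more SRSF2 counts than their controls (log2 difference -0.06, adjusted p = 0.389). Exons of MFSD11, which is transcribed in the other direction, cover 1106 of the 3017 exon bases of SRSF2, and reads from the pair cannot be told apart if the counting ignored strand. The labels do not give the sequence of the introduced SRSF2, and whether its reads are counted under this gene was not tested. SRSF3 was at 511, 499 and 511 CPM in 3xSR and at 407, 404 and 368 CPM in MYC-OE. It was 1.29-fold lower in MYC-OE (log2 difference -0.37, SE 0.06, adjusted p = 0.00071), and the log2 difference was -0.20 with the GC trend of each library removed. For SRSF7 the values were 383, 401 and 400.3 CPM in 3xSR and 306, 304 and 307 CPM in MYC-OE (log2 difference -0.37, SE 0.05, adjusted p = 0.00013). SRSF3 and SRSF7 in MYC-OE lay within log2 0.07 of 3xCTL, and all 3 SR genes were lower in every MYC-OE library than in any 3xSR library.

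**Figure D1:**
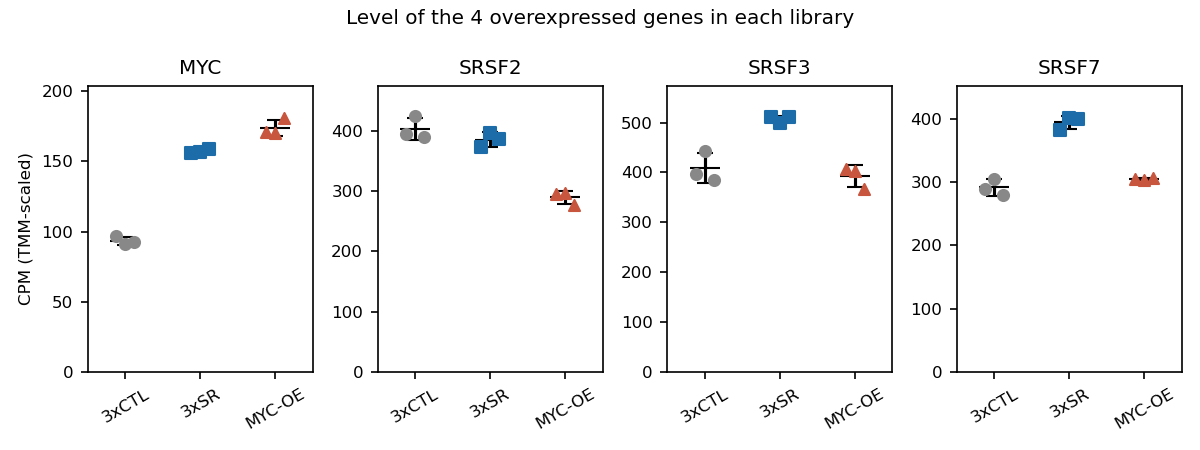
CPM of MYC, SRSF2, SRSF3 and SRSF7 (vertical axes from 0) in the 9 libraries, 1 point per library, with the mean and SD of each group as black bars. MYC lies above 3xCTL in both other groups, and SRSF2, SRSF3 and SRSF7 are lower in MYC-OE than in 3xSR.

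Of the 23160 genes tested, 8076 differed between MYC-OE and 3xSR at an adjusted p under 0.05 (34.9%). 4002 were higher in MYC-OE (17.3%) and 4074 were lower (17.6%). Most differences were small: the median absolute log2 difference of the called genes was 0.436. A log2 difference of at least 1 was reached by 684 of the genes higher in MYC-OE and 406 of those lower, and one of at least 2 by 113 and 76. At a mean of 5 CPM or more, 5734 of 11459 genes were called, against 2342 of 11701 genes below that level. Genes are named below by a rule that took the 15 highest and 15 lowest log2 differences among called genes with a mean of at least 5 CPM and no overlap between the groups.

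The gene with the lowest log2 difference was CDH11, which encodes the mesenchymal cadherin-11 (chr16:64943753-65126112 in GRCh38). CDH11 stood at 33.3, 31.6 and 32 CPM in 3xSR and at 6.06, 6.08 and 6.27 CPM in MYC-OE, 5.26-fold lower (log2 difference -2.40, SE 0.07, adjusted p = 3.82e-09). Its control mean was 8.49 CPM, so the MYC-OE libraries were near the control level and the 3xSR libraries far above it. SPRY4, a feedback inhibitor of receptor tyrosine kinase signalling (chr5:142310427-142326455), followed the same order. SPRY4 was at 22.6, 23.8 and 25.3 CPM in 3xSR, 5.88, 5.11 and 6.81 CPM in MYC-OE and 8.94 CPM in the control mean (log2 difference -2.01, SE 0.10, adjusted p = 1.77e-07). PTGS2, the inducible cyclooxygenase COX-2 (chr1:186671791-186680427), stood at 118, 109.6 and 113 CPM in 3xSR and at 40.4, 37.3 and 38.7 CPM in MYC-OE. It was 2.92-fold lower in MYC-OE (log2 difference -1.54, SE 0.05, adjusted p = 2.1e-08), where it did not differ from 3xCTL by the test (0.09, adjusted p = 0.217). EREG, the EGFR ligand epiregulin, was at 171, 158 and 166 CPM in 3xSR and at 68.5, 66 and 62.5 CPM in MYC-OE (log2 difference -1.33, SE 0.05, adjusted p = 4.5e-08).

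Other genes among the 15 lowest were lower in MYC-OE than in both other groups. The axonal adhesion protein SLITRK5 was at 17.4, 18 and 18 CPM in 3xSR, 4.59, 5.36 and 4.42 CPM in MYC-OE and 19.1 CPM in the control mean. The receptor-type tyrosine phosphatase PTPRG was at 26, 24.5 and 25.5 CPM in 3xSR and 7.12, 7.36 and 7.63 CPM in MYC-OE, with 20.3 CPM in the control mean. PTPRG shares 1207 of 14629 exon bases with its antisense gene. The endothelin receptor EDNRB fell in steps, from 12.4 CPM in the control mean to 7.64, 8.31 and 7.82 CPM in 3xSR and 2.77, 2.57 and 2.88 CPM in MYC-OE. The cation channel TRPC6 went the other way against the control. Its mean of 1.12 CPM in 3xCTL compared with 22.1, 23.9 and 23.7 CPM in 3xSR and 8.9, 7.82 and 8.16 CPM in MYC-OE (log2 difference of MYC-OE minus 3xSR -1.49, SE 0.08, adjusted p = 4.85e-07). The remaining genes of the 15 were LINC02474 (-1.92), PLCXD3 (-1.86), NPFFR2 (-1.70), CASC19 (-1.69), SLITRK4 (-1.63), PTPRZ1 (-1.47) and SLC14A1 (-1.42).

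At the other end stood ADD2, the beta subunit of the membrane skeleton protein adducin (chr2:70607618-70768225). ADD2 was at 4.95, 4.58 and 4.43 CPM in 3xSR and at 22.8, 23.6 and 24 CPM in MYC-OE, 5.05-fold higher (log2 difference 2.34, SE 0.12, adjusted p = 1.73e-07). FBN2, the microfibril protein fibrillin-2 (chr5:128257909-128659185), stood at 12.2, 12.4 and 12.4 CPM in 3xSR and at 55, 56.3 and 54.5 CPM in MYC-OE. Its control mean was 3.13 CPM, so it was raised in both lines and 4.47-fold more in MYC-OE than in 3xSR (log2 difference 2.16, SE 0.05, adjusted p = 1.02e-09). The interferon-induced OASL was at 2.29, 2.75 and 2.4 CPM in 3xSR, 11.1, 11.2 and 11.2 CPM in MYC-OE and 2.12 CPM in the control mean. CYP1A1, an aryl hydrocarbon receptor target, stood at 10.7, 10.3 and 10.2 CPM in 3xSR and at 49.3, 43.7 and 37.1 CPM in MYC-OE. ULBP1, a stress ligand of the natural killer receptor NKG2D, was at 5.41, 5.07 and 5.53 CPM in 3xSR and at 21.5, 20.8 and 19.3 CPM in MYC-OE.

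Several of the 15 highest genes encode matrix or surface proteins. Fibronectin, FN1, was at 31.8, 29.6 and 29.9 CPM in 3xSR, level with the 30 CPM of the control mean, and at 103, 91.8 and 107 CPM in MYC-OE (log2 difference 1.72, SE 0.07, adjusted p = 5.74e-08). The gelatinase MMP2 was at 11.6, 12.9 and 10.5 CPM in 3xSR and at 36.5, 37.7 and 38.3 CPM in MYC-OE. The collagen cross-linking enzyme LOXL2 rose from a control mean of 2.58 CPM to 8.8, 8.48 and 9.01 CPM in 3xSR and 29.1, 31.9 and 32.7 CPM in MYC-OE. L1CAM, a neural cell adhesion molecule, had its lowest values in 3xSR: 12.3, 13.8 and 12.5 CPM, against 40.1, 44.9 and 44.7 CPM in MYC-OE and 31.5 CPM in the control mean. The urothelial gene UPK2 was likewise lowest in 3xSR, at 4.74, 6.06 and 5.42 CPM, and did not differ by the test between MYC-OE and 3xCTL (0.10, adjusted p = 0.524). The rest were SUSD5 (2.08), CPVL (1.93), NGFR (1.77), IL7R (1.72) and EGFL7 (1.70). NGFR shares 1126 of its 4150 exon bases with a gene on the opposite strand, so the limit given for SRSF2 holds for it too.

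**Figure D2:**
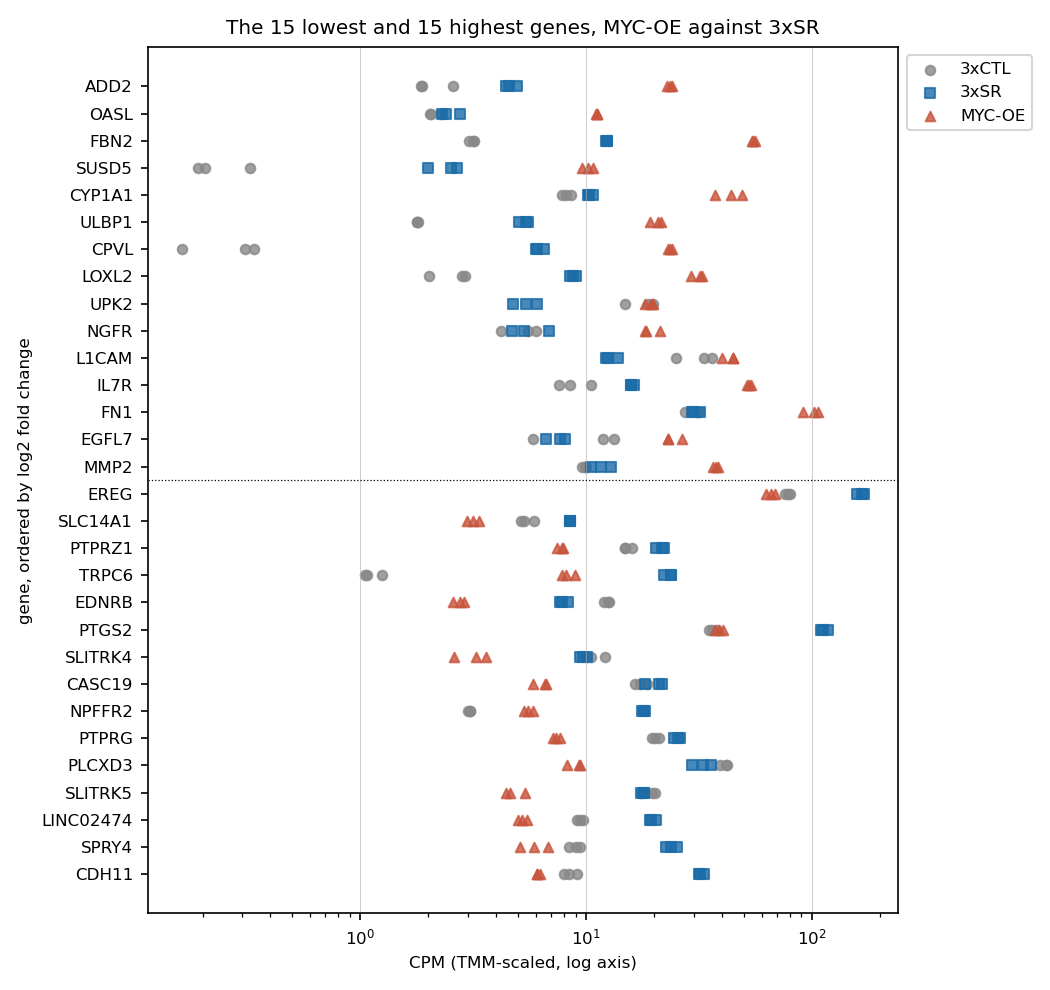
CPM on a log axis of the 15 genes with the lowest and the 15 with the highest log2 difference of MYC-OE minus 3xSR, 1 point per library of the 3 groups. In each row the MYC-OE and 3xSR points are apart, while the 3xCTL points lie near one group, between them or outside both.

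Where these 30 genes stood against the control differed from gene to gene. The 2 contrasts with 3xCTL share the control libraries, so their values are only set side by side. At an adjusted p under 0.05, 29.0% of all genes differed between 3xSR and 3xCTL and 35.3% between MYC-OE and 3xCTL. Of the 15 genes lower in MYC-OE than in 3xSR, 7 were above the control in 3xSR and below it in MYC-OE: CDH11, EREG, LINC02474, PTPRG, PTPRZ1, SLC14A1 and SPRY4. Another 3, CASC19, SLITRK4 and SLITRK5, differed from the control in MYC-OE only, and PTGS2 in 3xSR only. Of the 15 genes higher in MYC-OE, 9 differed from the control in the same direction in both lines, among them FBN2 (log2 difference from control 1.98 in 3xSR and 4.14 in MYC-OE), ULBP1 (1.57 and 3.52) and LOXL2 (1.76 and 3.59). EGFL7, FN1, NGFR and OASL differed from the control in MYC-OE only.

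The series also holds lines that overexpress 1 SR gene each, counted in a separate table with their own control, 1xCtrl, and these libraries were not used to choose the 30 genes. Of the 15 genes higher in MYC-OE than in 3xSR, 13 were higher and 1 lower than 1xCtrl in the SRSF7-OE line, where 9.03% of all genes were higher and 8.26% lower. FBN2, for example, was higher by log2 1.07 in SRSF7-OE, and CYP1A1 lower (-0.72). In the SRSF3-OE line 2 of the 15 were higher and 6 lower, against 15.0% and 14.1% of all genes, and FBN2 was lower there (-1.29). In SRSF2-OE 8 were higher and 2 lower, against 11.6% and 11.9%.

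The 15 genes lower in MYC-OE showed the reverse pattern. In the SRSF7-OE line 15 of the 15 were lower than 1xCtrl and 0 were higher. In SRSF3-OE 9 were higher and 1 was lower, with TRPC6 at 2.86, NPFFR2 at 1.67, PTGS2 at 1.65 and CDH11 at 1.08 on the log2 scale. In SRSF2-OE 1 was higher and 9 were lower. In those single lines the overexpressed gene itself was higher than in 1xCtrl for SRSF3 (0.49, adjusted p = 0.000193) and SRSF7 (0.26, adjusted p = 0.00616), and was not for SRSF2 (-0.16, adjusted p = 0.098). In the SRSF2-OE line SRSF3 (0.30) and SRSF7 (0.24) were also higher at an adjusted p under 0.05. MYC was higher in SRSF3-OE (0.26) and SRSF7-OE (0.27), and was not called in SRSF2-OE (0.12).

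Gene lists of pathways and cell states are described next by the number of tested members higher or lower in MYC-OE than in 3xSR. In each list the up to 3 highest and 3 lowest called members with a mean of at least 1 CPM are eligible to be named. A second set of counts is given where it differs, because the contrast followed the GC content of transcripts, as described further on, and each list was also counted after removing the GC trend of each library. With that trend removed, 19.1% of all genes were higher and 18.6% lower. Before its removal the shares were 17.3% and 17.6%, and 23.8% and 26.3% over protein-coding genes at 5 CPM or more.

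Of 16 tested genes for EGFR family receptors and ligands, 8 were lower in MYC-OE and 1 was higher (9 and 2 with the GC trend removed), with a median log2 difference of -0.194 beside 0.0013 over all genes. HBEGF, the heparin-binding EGF-like ligand, was at 109.8, 114 and 116 CPM in 3xSR and at 54.3, 53.7 and 62.8 CPM in MYC-OE (log2 difference -0.99, SE 0.07, adjusted p = 1.4e-06). ERRFI1, which inhibits EGFR from inside the cell, was at 109.7, 107 and 107 CPM in 3xSR and at 67.2, 63.6 and 64.5 CPM in MYC-OE (-0.73). The receptor gene ERBB2 was the 1 member higher in MYC-OE, at 155, 161 and 162 CPM against 109, 129 and 116 CPM, and its log2 difference of 0.43 fell to 0.27 with the GC trend removed.

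Of 25 tested AP-1 and immediate early genes, which are switched on within minutes of growth factor stimulation, 13 were lower in MYC-OE and 1 was higher (median log2 difference -0.347). With the GC trend removed the counts were 16 and 0. FOSL2, an AP-1 subunit gene, was called higher, but not with the trend removed (0.113, adjusted p = 0.0812). The phosphatases DUSP6 and DUSP4, which dephosphorylate the MAP kinase ERK, were both among the lower members. DUSP6 was at 83.6, 78.8 and 84.3 CPM in 3xSR and at 35.3, 30.8 and 34.3 CPM in MYC-OE (log2 difference -1.30, SE 0.06, adjusted p = 8.01e-08). DUSP4 was at 36.9, 33.9 and 36.1 CPM in 3xSR and at 17.7, 15.8 and 19.6 CPM in MYC-OE (-1.01, SE 0.08, adjusted p = 2.71e-06). Both stood near the control in MYC-OE, with control means of 32.9 and 14.8 CPM.

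Cytokine and chemokine genes were more often lower than higher in MYC-OE, with 13 of 31 tested lower and 3 higher (median log2 difference -0.365, and -0.189 with the same counts when the GC trend was removed). CXCL1, a neutrophil chemoattractant, was at 19.8, 19.8 and 22.8 CPM in 3xSR and at 10, 9.54 and 9.98 CPM in MYC-OE (-1.08, SE 0.07, adjusted p = 1.4e-06). IL24 was at 2.65, 2.85 and 2.59 CPM in 3xSR, 1.19, 0.726 and 1.25 CPM in MYC-OE and 0.259 CPM in the control mean. Against this direction CCL5, a chemokine for T cells, was at 0.291, 0.36 and 0.433 CPM in 3xSR and at 2.85, 2.81 and 2.42 CPM in MYC-OE, 7.47-fold higher (log2 difference 2.90, SE 0.18, adjusted p = 7.84e-07). TNFSF10, the death ligand TRAIL, was also higher (0.46, adjusted p = 0.000232).

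Of 34 tested genes of the TGF-beta pathway and ID family, 15 were lower and 7 higher, and 13 and 8 with the GC trend removed. ID4, a dominant-negative helix-loop-helix protein, was at 9.71, 9.64 and 9.54 CPM in 3xSR and at 6.33, 6.65 and 5.65 CPM in MYC-OE (-0.63, adjusted p = 0.000122). The receptor gene TGFBR2 was at 119, 121 and 121 CPM in 3xSR and at 171, 172 and 170.2 CPM in MYC-OE (0.51, SE 0.05, adjusted p = 1.96e-05). BMP4 was higher in MYC-OE by log2 0.92, with a control mean of 8.71 CPM above both groups.

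Genes of the extracellular matrix were more often higher than lower in MYC-OE. Of 28 tested collagen chain genes 16 were higher and 0 lower, with a median log2 difference of 0.618, and 13 and 1 with the GC trend removed (median 0.307). COL6A2, a chain of microfibrillar collagen, was at 14, 15.4 and 13.1 CPM in 3xSR and at 33.8, 36.7 and 41.5 CPM in MYC-OE (1.40, SE 0.23, adjusted p = 0.00245). COL9A3 was at 2.05, 2.45 and 2.25 CPM in 3xSR and at 5.53, 5.83 and 5.94 CPM in MYC-OE, a log2 difference of 1.36 that became 0.863 with the GC trend removed. Of 33 fibrillin and matrix glycoprotein genes, 19 were higher and 4 lower (19 and 6 with the trend removed). The proteoglycan gene SPOCK1 was at 4.85, 5.17 and 4.88 CPM in 3xSR and at 13.1, 12.8 and 14 CPM in MYC-OE, with 1.1 CPM in the control mean. Among the lower members, the microfibril gene MFAP5 was at 79.9, 83 and 85.2 CPM in 3xSR and at 43.6, 43.5 and 43.1 CPM in MYC-OE (-0.93, SE 0.08, adjusted p = 8.29e-06), and LUM, counted among the fibroblast markers above, was lower too (-0.83, adjusted p = 6.49e-06).

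The matrix proteases divided, with 14 of 30 tested higher and 6 lower (12 and 6 with the GC trend removed). The interstitial collagenase MMP1 was the most abundant of those named, at 1765, 1611 and 1732 CPM in 3xSR, 799, 783 and 854 CPM in MYC-OE and 365 CPM in the control mean (log2 difference -1.07, SE 0.07, adjusted p = 1.4e-06). Stromelysin-1, MMP3, was at 1.9, 1.96 and 1.75 CPM in 3xSR, and its 0.402, 0.368 and 0.528 CPM in MYC-OE lay beside the control mean of 0.408 CPM. The membrane-type protease MMP16 was at 6.35, 5.92 and 5.76 CPM in 3xSR and at 1.99, 1.85 and 1.97 CPM in MYC-OE (-1.63). MMP2, given above, and the epidermal MMP28 (0.98, and 0.58 with the GC trend removed) were higher.

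Genes of the epithelial to mesenchymal transition moved in both directions, 8 of 20 tested higher and 5 lower (8 and 6 with the GC trend removed). The intermediate filament gene VIM, low in these cells, was at 0.867, 0.933 and 0.817 CPM in 3xSR and at 3.23, 3.54 and 4.21 CPM in MYC-OE, 4.19-fold higher (2.07, SE 0.15, adjusted p = 2.35e-06), with 0.209 CPM in the control mean. THY1 rose from 7.09, 8.34 and 8.36 CPM to 20.7, 20 and 19.3 CPM (1.34). The transcription factor SNAI2 was lower, at 24.5, 22.9 and 24.8 CPM in MYC-OE against 39.9, 35.2 and 38.6 CPM in 3xSR (-0.65, SE 0.07, adjusted p = 3.74e-05), as was CDH11. The list therefore had members near both ends of the whole comparison. Epithelial adhesion genes were higher for 11 of 28 and lower for 5 (9 and 7 with the trend removed), and integrin and laminin genes were higher for 9 of 28 and lower for 3 (14 and 3).

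Of 22 keratin genes tested, 10 were higher in MYC-OE and 1 lower, and 9 and 4 with the GC trend removed. KRT19, a simple epithelial keratin, was at 516, 545 and 495 CPM in 3xSR and at 1168, 1166 and 1196 CPM in MYC-OE (1.18, SE 0.15, adjusted p = 0.000483). KRT14, the basal keratin, was the 1 lower member, at 702, 687 and 675 CPM in 3xSR and at 494, 470.3 and 481 CPM in MYC-OE, and above the control mean of 348 CPM in both (-0.51, and -0.80 with the trend removed). Squamous differentiation and desmosome genes were higher for 16 of 31 tested and lower for 3, and 15 and 5 with the trend removed. The cornified envelope gene SPRR1A was at 1.89, 2.5 and 2.26 CPM in 3xSR and at 4.49, 5.05 and 5.4 CPM in MYC-OE (1.17, SE 0.17, adjusted p = 0.000255), and TP63, the squamous master regulator, was lower (-0.34, adjusted p = 0.00138). Of 10 luminal markers tested 5 were higher and 0 lower. AGR2 was at 63.4, 63.5 and 62.1 CPM in 3xSR and at 104, 109.8 and 99.3 CPM in MYC-OE, and GATA3 at 19.8, 19.4 and 18 CPM and at 28.1, 27.5 and 27.2 CPM, with control means of 132 and 25.7 CPM.

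Cytosolic ribosomal protein genes were the list with the greatest share of higher members among the 36 examined. Of 78 tested, 59 were higher in MYC-OE than in 3xSR and 1 was lower, with a median log2 difference of 0.276, and 69 and 1 with the GC trend removed (median 0.303). RPL36 was at 63.1, 69.2 and 60.4 CPM in 3xSR and at 123, 123 and 143 CPM in MYC-OE (1.01, SE 0.16, adjusted p = 0.00152). RPLP1, of the ribosomal stalk, was at 149.9, 158 and 141 CPM in 3xSR and at 296, 285 and 310.4 CPM in MYC-OE (0.99, SE 0.11, adjusted p = 0.000121). The 1 lower member was RPS16, at 289.6, 294 and 293 CPM in 3xSR and at 209, 201 and 202 CPM in MYC-OE (-0.52, SE 0.04, adjusted p = 6.34e-06).

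The nucleolar factors that assemble ribosomes did not follow the ribosomal proteins. Of 43 tested, 5 were higher and 10 lower (median log2 difference -0.059), and 6 and 12 with the GC trend removed. FBL, the methyltransferase fibrillarin, was the lowest, at 152, 145 and 152 CPM in 3xSR and at 89.1, 89.1 and 87.5 CPM in MYC-OE (-0.76, SE 0.05, adjusted p = 8.75e-07). Among 43 translation factors 8 were higher and 10 lower (12 and 12 with the trend removed), with EIF3K at 135, 134 and 137 CPM in 3xSR and 88.6, 85.1 and 85 CPM in MYC-OE (-0.65), and EIF4EBP1, the inhibitor of cap-binding, higher (0.93, and 0.50 with the GC trend removed).

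Transcripts of the mitochondrial genome were lower in MYC-OE for 12 of 15 tested and higher for 0. With the GC trend removed 10 were lower and 0 higher. The median log2 difference was -0.379, and -0.274 with the trend removed. MT-ATP6 was at 4692, 5519 and 5403 CPM in 3xSR and at 3346, 3388 and 3467 CPM in MYC-OE (-0.61, SE 0.07, adjusted p = 7.09e-05). Together the genes of this genome took 10.5% to 12.3% of counts in 3xSR, 9.36% to 9.75% in MYC-OE and 10.9% to 12.2% in 3xCTL. Respiratory chain genes in the nucleus went the other way for 16 of 49 tested, with 2 lower (27 and 4 with the trend removed). Cytochrome c, CYCS, was the lowest of them, at 242, 243 and 239 CPM in 3xSR and at 152, 159 and 142 CPM in MYC-OE (-0.68, SE 0.07, adjusted p = 2.94e-05).

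Glycolysis, nucleotide and lipid synthesis lists each had more members higher than lower in MYC-OE. Glycolysis had 14 of 24 tested higher and 2 lower (12 and 3 with the GC trend removed), among them the glucose transporter SLC2A3 at 4.28, 5.21 and 4.8 CPM in 3xSR and 9.41, 9.46 and 9.39 CPM in MYC-OE (0.98, SE 0.09, adjusted p = 1.44e-05). Nucleotide, folate and polyamine synthesis had 10 of 33 higher and 3 lower, and 18 and 5 with the GC trend removed. The mitochondrial serine enzyme SHMT2 was at 141, 149 and 139 CPM in 3xSR and at 206, 205 and 202 CPM in MYC-OE (0.51, SE 0.06, adjusted p = 8.34e-05). Cholesterol and fatty acid synthesis had 16 of 31 higher and 2 lower, and 18 and 2 with the trend removed.

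The integrated stress and unfolded protein response list had 14 of 25 members higher and 5 lower (12 and 4 with the GC trend removed). Among the lower members were DDIT3 (-0.295 with the trend removed, adjusted p = 0.00241) and DNAJB9 (-0.192, adjusted p = 0.0269). DNAJC3 was lower too, but not called with the trend removed (-0.034, adjusted p = 0.591). Asparagine synthetase, ASNS, was at 40.7, 40.1 and 39.4 CPM in 3xSR and at 74.2, 75 and 73.3 CPM in MYC-OE (0.89, SE 0.07, adjusted p = 3.87e-06), and PHGDH, the entry enzyme of serine synthesis, at 97.5, 93.6 and 95.7 CPM and at 155, 159.9 and 149 CPM (0.69). Amino acid transporters divided, 9 of 23 higher and 8 lower (7 and 7 with the trend removed). SLC1A4, a carrier of alanine and serine, was at 13.8, 15.3 and 15.5 CPM in 3xSR, below the control mean of 36.2 CPM, and at 40.2, 42.1 and 38.9 CPM in MYC-OE (1.44, SE 0.06, adjusted p = 5.74e-08). The large neutral amino acid carrier SLC7A5 was at 1237, 1343 and 1178 CPM in 3xSR and at 1955, 1996 and 2025 CPM in MYC-OE (0.67, and 0.37 with the GC trend removed). SLC6A14 was lower, at 12.3, 12.5 and 12.1 CPM in 3xSR and 5.82, 6.05 and 6.07 CPM in MYC-OE (-1.04, SE 0.09, adjusted p = 1.18e-05).

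Mitosis and replication lists had called shares of 32.4% and 33.3%, near the 34.9% of all genes. Both shares were below the 50.0% called among genes at 5 CPM or more. With the GC trend removed, 37.7% of all genes were called. The mitosis list was then above that share, as its counts below show. Mitosis and spindle checkpoint genes were higher for 11 of 37 and lower for 1, and 21 and 4 with the GC trend removed, with CCNB2, the B2 cyclin, at 63.7, 58.4 and 57.9 CPM in 3xSR and at 89.3, 89 and 86.9 CPM in MYC-OE (0.56, SE 0.06, adjusted p = 5.58e-05). Replication and origin licensing genes were higher for 8 of 39 and lower for 5 (12 and 3 with the trend removed), the highest called member being the helicase subunit MCM2 (0.44, and 0.26 with the trend removed). G1 cyclins and CDK inhibitors were higher for 3 of 20 and lower for 7 (2 and 9 with the trend removed). In the BCL2 family 5 of 15 were higher and 4 lower: the antiapoptotic MCL1 was at 197, 186 and 191 CPM in 3xSR and at 131, 130.1 and 124 CPM in MYC-OE (-0.57, SE 0.06, adjusted p = 2.04e-05), with 132 CPM in the control mean, and BCL2 was lower too (-0.73, adjusted p = 6.73e-05).

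Interferon-stimulated genes were higher in MYC-OE for 22 of 38 tested and lower for 5, and 29 and 5 with the GC trend removed (median log2 difference 0.318 and 0.356). ISG15, a ubiquitin-like modifier, was at 4.03, 4.05 and 3.76 CPM in 3xSR and at 9.65, 9.43 and 11.6 CPM in MYC-OE (1.37, SE 0.22, adjusted p = 0.00117), with a control mean of 5.63 CPM. Tetherin, BST2, was at 7.34, 7.8 and 7.32 CPM in 3xSR and at 17.8, 18.9 and 19.3 CPM in MYC-OE (1.32). The transducers IRF9 (-0.68) and STAT2 (-0.37) were among the 5 lower members. MHC class I antigen presentation had 11 of 19 members higher and 0 lower, and 11 and 2 with the trend removed. HLA-B was at 74.6, 78.8 and 77.3 CPM in 3xSR and at 127, 136 and 125 CPM in MYC-OE (0.75, SE 0.07, adjusted p = 1.77e-05), and near the 3xSR level in the control mean (80.7 CPM). HLA genes are close copies of each other, so counts may be shared between them.

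Splicing genes beyond the overexpressed ones were examined because the 3xSR line was built on them. Of 11 other SR and SR-like genes 5 were lower in MYC-OE and 0 higher, and 5 and 3 with the GC trend removed. TRA2A was at 93.6, 102 and 98.6 CPM in 3xSR and at 71.3, 74.8 and 67.1 CPM in MYC-OE (-0.46, SE 0.06, adjusted p = 0.000209), with 97.8 CPM in the control mean. SRSF11 (-0.43) and SRSF10 (-0.41) were also lower, at -0.17 and -0.25 with the trend removed. The median of this list changed sign between settings, as did that of the hnRNP genes (2 of 26 higher and 6 lower, but 10 higher and 5 lower with the trend removed), so no direction is given for either. The core spliceosome had 14 of 50 higher and 10 lower (20 and 11 with the trend removed), from the helicase SNRNP200 (-0.44, adjusted p = 1.86e-05) to LSM4 (0.70, adjusted p = 2.23e-06). The SR protein kinases and importer had 1 of 11 higher and 5 lower, but 4 and 5 with the trend removed. In the MYC, MAX and MXD network 2 of 12 were higher and 1 lower, and with the trend removed 1 was higher and 3 lower, so no direction is given.

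**Figure D3:**
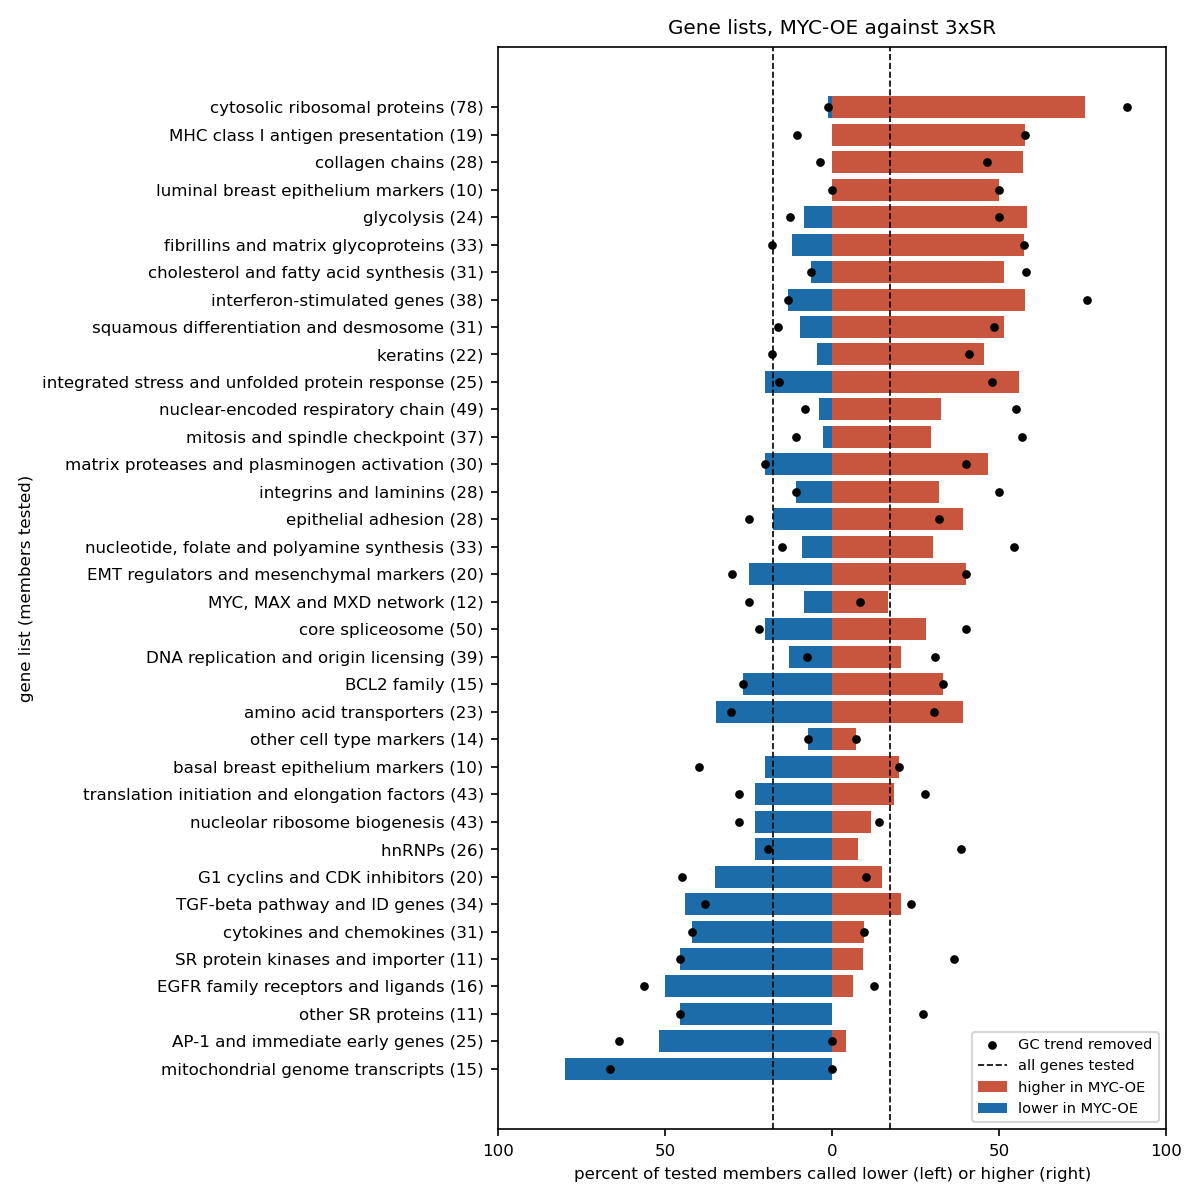
Percent of the tested members of 36 gene lists called lower (left, blue) and higher (right, red) in MYC-OE than in 3xSR, with the same after removal of the GC trend as black points and the shares over all genes, 17.6% and 17.3%, as dashed lines. Cytosolic ribosomal proteins stand at the top and transcripts of the mitochondrial genome at the bottom.

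The direction of a gene's difference went with the GC content of its transcripts. Genes were put into 5 equal bins by transcript GC. In the bin with the lowest GC, 5.91% were higher in MYC-OE and 35.4% lower, and in the bin with the highest GC 34.0% were higher and 3.73% lower. The median log2 difference was -0.202 in the lowest bin and 0.315 in the highest. A contrast of high-GC with low-GC genes in each library, as log2 CPM against the mean of the 9 libraries, was -0.366, -0.151 and -0.266 in 3xSR and 0.154, 0.154 and 0.296 in MYC-OE. In 3xCTL it was 0.243, -0.297 and 0.244, so replicate 2 of the control lay with 3xSR and the other 2 replicates with MYC-OE. This measure therefore differed as much within the control as between the groups compared.

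Other library measures moved with the groups as well. The contrast of long with short transcripts was 0.102 to 0.16 in 3xSR and -0.173 to -0.164 in MYC-OE. Genes annotated as sense intronic took 0.0281% to 0.0302% of counts in 3xSR and 0.022% to 0.0222% in MYC-OE. With the GC trend of each library removed 8736 genes were called, and 6309 of the 8076 genes of the main comparison were called in the same direction. The part of GC content, length or intronic RNA in the list results was not tested beyond the counts given with the trend removed.

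**Figure D4:**
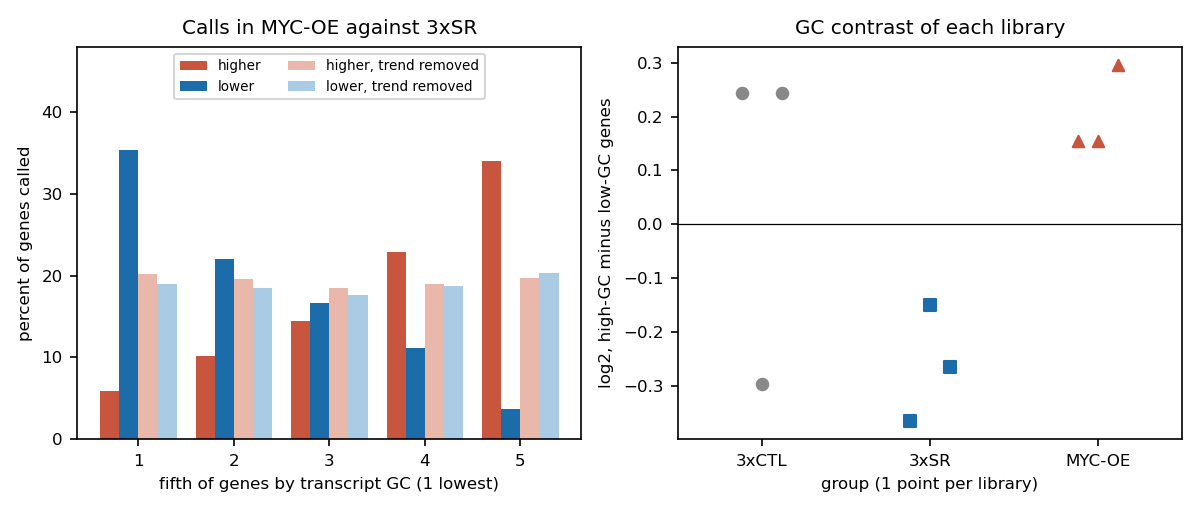
Left, percent of genes called higher or lower in MYC-OE in each of 5 bins of genes by transcript GC, before and after removal of the GC trend. Right, log2 level of high-GC minus low-GC genes in each library, which is below 0 in the 3 3xSR libraries and in 1 of 3 3xCTL libraries, and above 0 in the 3 MYC-OE libraries.

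Differences were also grouped along chromosomes. Windows of 25 neighbouring protein-coding genes at 5 CPM or more were taken along each chromosome, 419 in all. Over these genes' class as a whole 23.8% were higher in MYC-OE and 26.3% lower. The lowest window lay on the long arm of chromosome 19 (chr19:38403135-40056209), where 23 of 25 genes were lower and 0 higher, and 24 were lower with the GC trend removed. Its median log2 difference was -0.648, against 0.089 over the rest of the chromosome. RPS16, FBL and EIF3K, named above among ribosomal, nucleolar and translation genes, lie in this window. So does HNRNPL, 1 of the hnRNP genes lower in MYC-OE (-0.41). RPS16 was thus the 1 lower ribosomal protein gene and also a member of this window. Relative to the mean of the 9 libraries, the window's median was 0.441, 0.305 and 0.429 in 3xCTL, 0.107, 0.17 and 0.15 in 3xSR and -0.511, -0.556 and -0.485 in MYC-OE. The order of the 3 groups was the same in every library, with a median log2 difference from 3xCTL of -0.924 in MYC-OE and -0.215 in 3xSR.

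A longer block lay on chromosome 15. In 7 consecutive windows (chr15:58588807-98964530) 123 of 175 genes were higher in MYC-OE than in 3xSR and 5 lower (median log2 difference 0.312), and 141 and 5 with the GC trend removed. In this block 3xSR stood below the control by a median of -0.302, while MYC-OE stood at -0.02. The level of 3xSR was not particular to the block: over chromosome 15 the medians were -0.322 in 3xSR and -0.189 in MYC-OE. In the windows of chr15:22773063-50355408, 3xSR lay between -0.383 and -0.241 and MYC-OE between -0.552 and -0.309. Per library the block's median against the mean of 9 was -0.193, -0.222 and -0.222 in 3xSR and 0.11, 0.099 and 0.105 in MYC-OE. CCNB2, PRC1 and KIF23, the 3 highest mitosis genes, and RPLP1 and CLK3 lie in it. The neighbouring window toward the centromere (chr15:50424380-57782762) had 19 of 25 genes lower in MYC-OE and 0 higher, both lines being below the control (-0.492 in 3xSR and -0.873 in MYC-OE). With the GC trend removed 16 were lower and 3 higher, and the median went from -0.368 to -0.201. Windows not described further had lower medians with the trend removed, among them chr19:11721265-12872740 (-0.385) and chr17:75874161-78173527 (-0.349).

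On chromosome 2, 3 consecutive windows (chr2:96266132-117832379) held 51 of 75 genes lower in MYC-OE and 4 higher, with a median log2 difference of -0.304. The next window (chr2:117915478-128195677), not counted in the block, had 18 of 25 genes lower and 2 higher (median -0.30), so the block has no sharp end. In this block 3xSR stood above the control by 0.302 and MYC-OE at 0.01. It holds SNRNP200, the lowest spliceosome gene named, BUB1, the 1 lower mitosis gene, and POLR1B. These 4 blocks were picked after their values were seen. They hold 652 tested genes, 316 of them called, beside 34.9% of all genes tested and 50.0% of those at 5 CPM or more. They also hold 30 members of the gene lists. Outside them the ribosomal proteins were 56 of 73 higher and 0 lower, mitosis genes 8 of 33 higher and 0 lower, and nucleolar factors 5 of 40 higher and 7 lower. Only CYP1A1 of the 30 leading genes lies in a block, that of chromosome 15. Whether gene copy number differs between the lines was not tested.

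**Figure D5:**
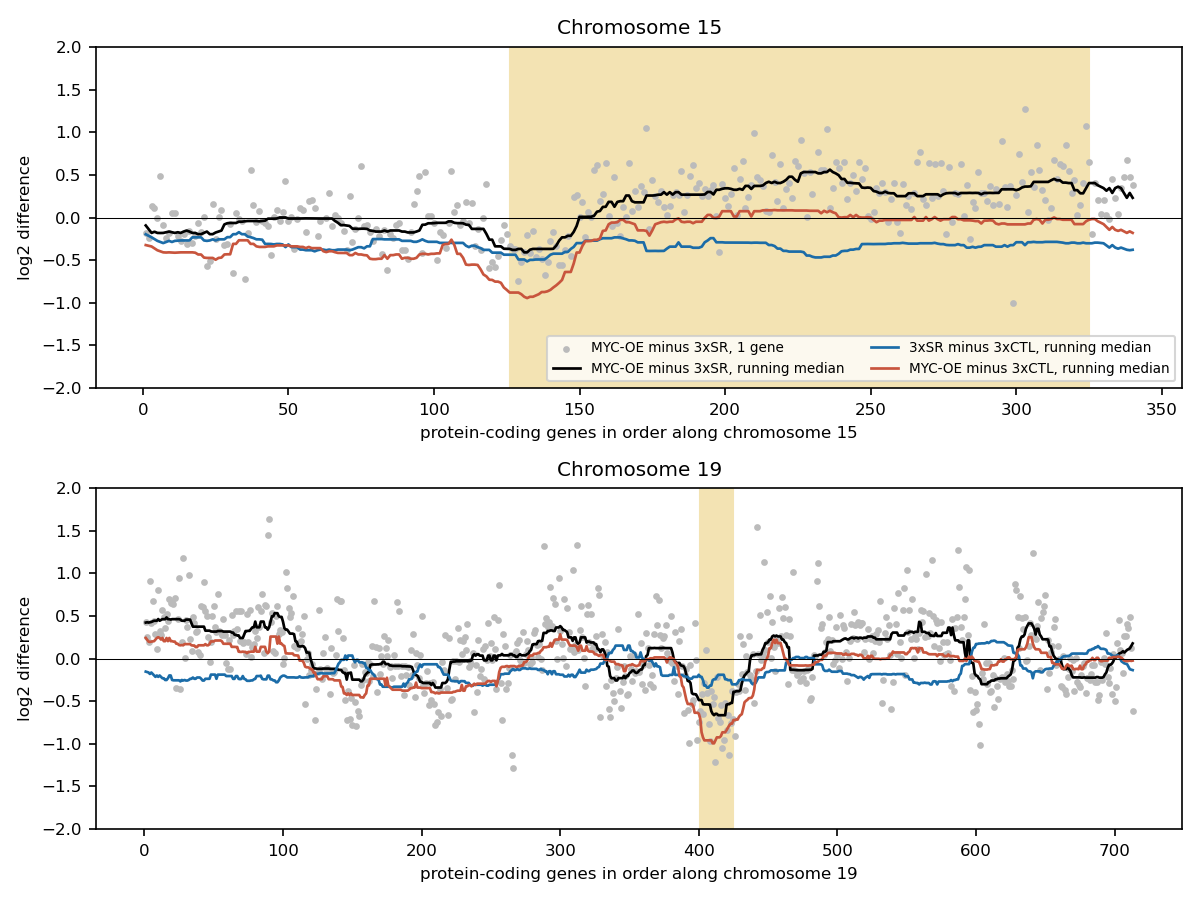
Log2 difference of MYC-OE minus 3xSR for protein-coding genes at 5 CPM or more in their order along chromosomes 15 and 19 (grey points, limited to -2 to 2), with running medians over 25 genes of that contrast and of each line minus 3xCTL. Shading marks the blocks described: on chromosome 15 the black line passes from below to above 0, and on chromosome 19 the black and red lines dip together.

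MYC binds E-boxes, and the list of AP-1 and immediate early genes had more members lower than higher in MYC-OE. The sequence just upstream of gene starts was therefore searched for motifs. They were CACGTG, the E-box, and TGANTCA, a pattern in which N is any base and which includes the AP-1 site. Both motifs read the same on the 2 strands and do not overlap each other in letters. Promoter windows from 250 bases before to 50 bases after a start, from the RefSeq table of build GRCh38.p14, matched 13668 of the tested genes. CACGTG was in 9.99% of windows of genes higher in MYC-OE, 9.68% of those lower, 9.31% of those not called and 7.26% of all 35116 windows in the table. TGANTCA was in 5.35%, 5.35%, 5.62% and 7.71%. Among genes that differed by at least log2 1, CACGTG was in 32 of 411 windows of those higher (7.79%) and 4 of 156 of those lower (2.56%), and TGANTCA in 7.06% and 7.69%. No motif share was recounted with the GC trend removed, and the part of GC content in these shares was not tested. Of the 30 leading genes 21 had a window, and FBN2 alone held CACGTG, while none held TGANTCA. Upstream stretches of 250 bases are printed with the motif in capitals, 5′ to 3′ on the strand of the gene. They are examples: the E-box is shown only in genes higher in MYC-OE, and TGANTCA in a lower and a higher gene. This choice does not reflect the shares of CACGTG over all called genes, 9.99% of those higher and 9.68% of those lower. SLC7A5, CXCL8 and SPRR1B lie outside the 30 leading genes, and CXCL8 and SPRR1B were chosen after their values were seen.
FBN2: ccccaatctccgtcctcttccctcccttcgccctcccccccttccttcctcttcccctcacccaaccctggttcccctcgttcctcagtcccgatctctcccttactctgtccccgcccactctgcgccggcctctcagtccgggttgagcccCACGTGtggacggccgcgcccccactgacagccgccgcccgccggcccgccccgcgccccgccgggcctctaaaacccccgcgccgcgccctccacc
SLC7A5: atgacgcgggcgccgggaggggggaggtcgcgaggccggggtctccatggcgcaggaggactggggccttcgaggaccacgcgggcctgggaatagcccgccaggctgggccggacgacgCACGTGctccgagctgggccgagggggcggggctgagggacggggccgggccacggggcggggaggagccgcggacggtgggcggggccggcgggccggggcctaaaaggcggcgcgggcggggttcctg
CXCL8: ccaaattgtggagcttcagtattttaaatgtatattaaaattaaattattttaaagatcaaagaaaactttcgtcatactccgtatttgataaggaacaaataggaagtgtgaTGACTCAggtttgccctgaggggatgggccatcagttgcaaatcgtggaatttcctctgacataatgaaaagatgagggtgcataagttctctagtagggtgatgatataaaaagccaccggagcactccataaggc
SPRR1B: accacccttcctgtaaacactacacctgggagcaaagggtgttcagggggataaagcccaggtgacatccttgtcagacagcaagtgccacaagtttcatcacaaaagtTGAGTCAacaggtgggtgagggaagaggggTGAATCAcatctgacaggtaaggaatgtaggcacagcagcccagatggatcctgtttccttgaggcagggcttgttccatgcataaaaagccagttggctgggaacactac

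The FBN2 stretch (chr5:128538246-128538495, minus strand) holds CACGTG starting 97 bases before the RefSeq start, which lies inside the longer gene span given above, and that of SLC7A5 (chr16:87869508-87869757, minus strand) 130 bases before it. Both genes were higher in MYC-OE, as given above. CXCL8, the chemokine interleukin-8 (chr4:73740319-73740568, plus strand), holds TGACTCA starting 137 bases before its start. It was at 26.7, 28.7 and 28.2 CPM in 3xSR and at 14.8, 15.5 and 13.1 CPM in MYC-OE (-0.95, SE 0.07, adjusted p = 3.47e-06), with 9.79 CPM in the control mean. SPRR1B, a cornified envelope gene (chr1:153030953-153031202, plus strand), holds TGAGTCA at 141 and TGAATCA at 111 bases before its start, and went the other way, from 14.1, 14.5 and 12.7 CPM in 3xSR to 24.3, 23.1 and 24.9 CPM in MYC-OE (0.81, SE 0.08, adjusted p = 1.54e-05). A match to TGANTCA thus lay upstream of a gene lower and of a gene higher in MYC-OE.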

How the data were processed

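The count table was used as the authors deposited it: whole-number counts per gene, 60668 genes, from stranded polyA libraries. Per the submitters' processing notes the tools were Trimmomatic 0.39, STAR and StringTie 2.1.3b with GRCh38.p13; the strand setting of the counting is not given in the sources used here. Columns were matched to samples by name.

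The main test was edgeR 4.0.16 (R 4.3.3): filterByExpr (minimum count 10, minimum total 15), TMM scaling, a robust quasi-likelihood fit over the 9 libraries of the table with 3 groups, the contrast MYC-OE minus 3xSR, and Benjamini-Hochberg adjustment over all tested genes at 0.05. Standard errors are the log2 difference divided by the square root of F. The single-gene lines sit in another table and were fitted separately. The GC trend was removed from each library as offsets over bins of transcript GC. Symbols and positions come from GENCODE release 29 (58548 of 60668 genes matched), promoter sequences from RefSeq. The method was tested on simulated data.

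Genes named are the 4 targeted genes, the 15 highest and 15 lowest called genes with a symbol, a mean of at least 5 CPM and no overlap, and up to 3 called members per list and direction at 1 CPM or more. Members and lists were chosen with earlier results of these data known.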

Additional observations from a re-analysis of the deposited data

How the results depend on the processing

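The 30 leading genes kept their direction and call under the alternatives run. These were other scalings, filters, tools, thinning to equal depth, GC removal, a fit of the compared groups alone, blocking and leaving out each library. The genes were chosen from these same libraries for large differences without overlap, so this is no independent check of them. With the GC trend removed EGFL7 went from 1.70 to 1.20 and FN1 from 1.72 to 1.83. Calls numbered 8682 with DESeq2, 8185 with limma-voom, 9827 with the compared groups alone, 7257 without a filter and 7962 after thinning, and 6068 to 9856 with 1 library left out. A minimum absolute log2 difference of 1 left 1090 calls, 684 higher and 406 lower, and none of the targeted genes (MYC 0.147, SRSF2 -0.411, SRSF3 -0.368, SRSF7 -0.370).

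The call for MYC was lost with the GC trend removed (0.059), with that and the replicate block (0.060), and without single replicates of MYC-OE or 3xSR (0.119 to 0.164). With the trend removed, with or without the block, CDKN2D turned from higher to -0.085 and -0.086, and NDUFA5 from lower to 0.055 and 0.055.

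Replicate numbers are shared between groups, but same-numbered libraries did not deviate together (correlations 0.0338, 0.0127 and -0.011). A fit blocked on that number called 7549 genes, 3707 higher and 3842 lower.

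Thinning to the depth of the smallest library changed the number of calls by less than 1.5 times. The 3 libraries a group limit the precision.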
